A study of Mus musculus with 24 samples.

Results

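Prostanoids are short-lived lipid mediators made from arachidonic acid, and 10 genes that make or sense them are described here in cultured mouse macrophages with and without the aryl hydrocarbon receptor (AhR). The genes were chosen by name and role, with earlier results of these data known, so counts of how many changed are descriptions. Ptgs1 and Ptgs2 stand for the cyclooxygenases, Ptges, Ptges2, Hpgds and Tbxas1 for the terminal synthases, and Ptger2, Ptger3, Ptger4 and Ptgir for the receptors. They are 10 of the 55421 genes in the count table, and all 10 passed the filter on low counts.

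Polyadenylated RNA was sequenced from bone marrow-derived macrophages (BMDMs), with 4 groups of 6 libraries: WT unstimulated, WT LPS, AhR-KO unstimulated and AhR-KO LPS. WT cells came from C57BL/6J mice, and the study's methods describe adult mice matched for age and sex. AhR-KO cells came from mice that carry the Ahr tm1Bra allele from birth in every tissue, so a change during the growth of the marrow cells cannot be told apart from a change in the finished macrophage. Every culture was grown in GM-CSF (10 ng/ml) and TGF-β (2 ng/ml), a mix that gives alveolar-like macrophages from marrow and not macrophages taken from a lung. LPS groups received 97 EU/ml LPS on day 6 for 24 h. The same protocol text stands for every library and ends with the calcium ionophore A23187 (5 µM for 10 min), so the unstimulated cells were not necessarily free of any agent. The sources used here do not say whether an unstimulated and an LPS culture came from the same animal.

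Cyclooxygenases turn arachidonic acid into prostaglandin H2, the shared precursor of all prostanoids. Terminal synthases then convert it to prostaglandin E2, prostaglandin D2, thromboxane or prostacyclin, and each product acts on its own G protein-coupled receptors on the same or neighbouring cells. In macrophages, Ptgs2 and Ptges are classical inducible genes of the response to bacterial products, while Ptgs1 is usually described as constitutive.

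Total counts ran from 45106052 to 76992663 per library. The knockout does not remove all Ahr reads: mean Ahr was 28.3 CPM (fragment counts scaled to a common library size by the trimmed mean of M-values, TMM) in WT unstimulated, 16.8 in WT LPS, 7.41 in AhR-KO unstimulated and 43.1 in AhR-KO LPS, so the Ahr reads alone do not check the genotype after LPS. The AhR target Ahrr was at 42.3 CPM in WT and 0.515 CPM in AhR-KO cells without stimulation, and at 64.1 and 0.213 CPM after LPS. Cyp1b1, also an AhR target, was lower in AhR-KO cells under both treatments, whereas Tiparp was at 74.2 CPM in WT and 51.8 CPM in AhR-KO cells without stimulation and at 76.2 and 148 CPM after LPS. All 8 macrophage markers and all 8 alveolar macrophage markers had counts in every group. Macrophage markers summed to between 12065 and 33675 CPM, and alveolar macrophage markers to between 3764 and 11232 CPM. Of the alveolar macrophage markers, 5 fell and 1 rose with LPS in WT cells and 4 fell and 1 rose in AhR-KO cells, and 2 were higher in AhR-KO than in WT cells under each treatment. Their sum was 6844 to 9331 CPM in WT and 8131 to 11232 CPM in AhR-KO cells without stimulation, and 3764 to 8201 CPM and 7133 to 11014 CPM after LPS; the part of this in the members' differences was not tested. All 8 cytokine and enzyme genes used to check the LPS response were higher after LPS in both genotypes. The slope of log2 level on log2 gene length ran from 0.0952 to 0.585 over the libraries. Library numbers are used as replicate numbers; they fall into 3 runs of 8 (17 to 24, 25 to 32 and 33 to 40) that each hold 2 libraries of every group, but the labels do not say that the runs are batches. Exons of Ptgs1, Tbxas1, Ptger2 and Ptger4 share bases with genes on the opposite strand only, and fragments were counted by strand. Replicate 34 (WT unstimulated) and replicate 38 (WT LPS) had almost no counts from the 4 Y-linked genes (0.0316 and 0.0979 CPM summed). The sum of these genes was 155 to 225 CPM in AhR-KO unstimulated and 165 to 241 CPM in AhR-KO LPS libraries. The match in sex that the methods describe is thus not seen between the genotypes in these counts. Leaving out replicates 34 and 38 is treated as an alternative.

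LPS turned the cyclooxygenase pair over in both genotypes: Ptgs1 fell and Ptgs2 rose, and the prostaglandin E2 synthase gene Ptges rose with Ptgs2. Hpgds, Tbxas1 and Ptger3 fell in WT cells, and Ptgs1, Tbxas1 and Ptgir fell in AhR-KO cells. A gene is said to have changed when edgeR's quasi-likelihood test gave an adjusted p (Benjamini-Hochberg over all 16593 genes tested) of at most 0.05 and the log2 fold change was at least 1 in size. For the difference between the LPS effects of both genotypes, the interaction, only the adjusted p was used. In WT cells 2 members rose, 4 fell and 4 did not pass, where 24.9 percent of all genes tested changed (13.2 percent higher, 11.8 percent lower). In AhR-KO cells 2 rose, 3 fell and 5 did not pass, where 30.8 percent of all genes changed (15.1 percent higher, 15.7 percent lower). The libraries of the unstimulated and LPS groups did not overlap for 6 members in WT cells (22.4 percent of all genes) and for 4 members in AhR-KO cells (28.5 percent). The median log2 fold change of the members was 0.11 in WT cells, where that of all genes was 0.03, and -0.43 in AhR-KO cells, where that of all genes was -0.03. Both LPS comparisons use their own unstimulated libraries, whereas each genotype comparison shares its libraries with an LPS comparison, so the comparisons are set side by side and not correlated.

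**Figure D1:**
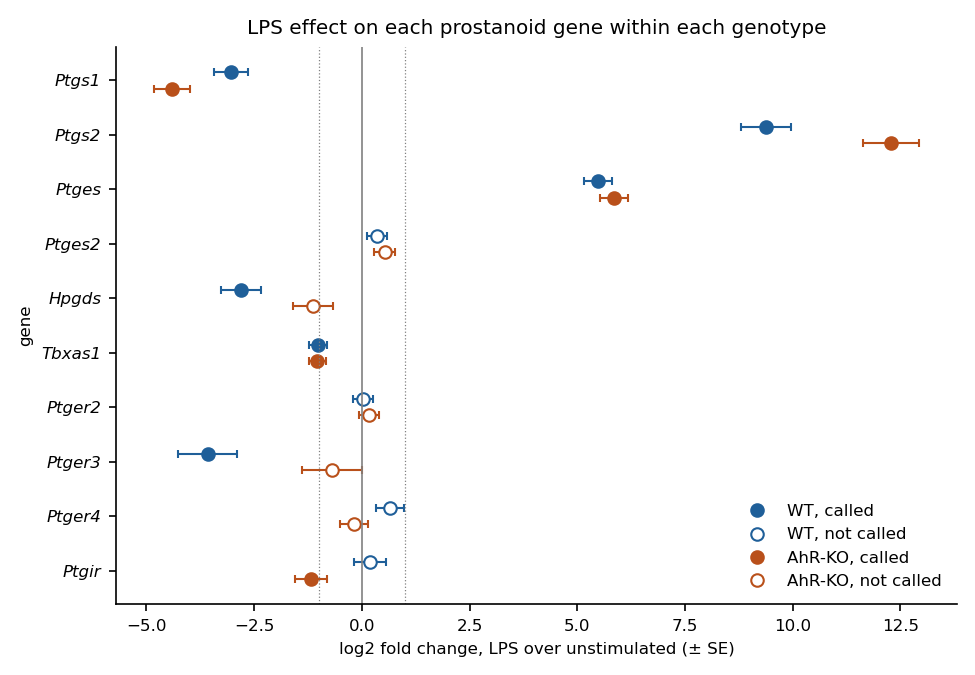
The horizontal axis gives the fitted log2 fold change of LPS over unstimulated cells with its standard error for each of the 10 genes, in WT (blue) and AhR-KO (orange) cells; filled points passed the test, open points did not, and dotted lines mark a log2 fold change of 1 in either direction. Ptgs2 lies at 9.38 in WT and 12.28 in AhR-KO, Ptges at 5.48 and 5.86, and Ptgs1 at -3.03 and -4.40.

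Ptgs1 (ENSMUSG00000047250, mm10 chromosome 2, 36230426 to 36252272, plus strand) encodes the constitutive cyclooxygenase COX-1. In WT unstimulated libraries Ptgs1 ranged from 128 to 291 CPM with a median of 246, and in WT LPS from 7.95 to 54.9 CPM with a median of 26.03. In AhR-KO unstimulated libraries it ranged from 27.5 to 49.9 CPM with a median of 37.4, and in AhR-KO LPS from 0.671 to 3.13 CPM with a median of 1.75. Every LPS library lay below every unstimulated library of the same genotype, and every AhR-KO library lay below every WT library of the same treatment. The unstimulated AhR-KO libraries were at about the level that WT cells reached only after LPS. Ptgs1 fell with LPS by 3.03 on the log2 scale in WT cells (SE 0.39, edgeR adjusted p = 1.2e-06) and by 4.40 in AhR-KO cells (SE 0.42, adjusted p = 7.5e-09). Against WT, it was lower in AhR-KO cells by a log2 fold change of -2.66 without stimulation (SE 0.38, adjusted p = 5.1e-05) and of -4.03 after LPS (SE 0.41, adjusted p = 3.8e-07). The LPS effects of both genotypes differed by -1.37 (SE 0.52), which did not pass the interaction test (adjusted p = 0.18). That difference passed with the run of 8 as a factor (adjusted p = 0.041) and with each library's slope of expression on gene length as a covariate (adjusted p = 0.034).

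Ptgs2 (ENSMUSG00000032487, chromosome 1, 150100031 to 150108227, plus strand) encodes COX-2, the inducible cyclooxygenase. Without stimulation Ptgs2 was close to the lower end of what was counted: 0.499 to 1.27 CPM in WT (median 0.842, from 37 to 104 counts) and 0.227 to 0.968 CPM in AhR-KO (median 0.680, from 10 to 83 counts). After LPS it ranged from 407 to 917 CPM in WT, with a median of 499. In AhR-KO LPS libraries the values were 1023 and 1112 CPM in replicates 23 and 24, 5837 and 5990 CPM in replicates 31 and 32, and 2596 and 2354 CPM in replicates 39 and 40. All 6 AhR-KO LPS libraries lay above all 6 WT LPS libraries, and the 6 fell into 3 pairs that follow the runs of 8, with a coefficient of variation of 70.8 percent against 33.8 percent in WT LPS. Ptgs2 rose with LPS by 9.38 on the log2 scale in WT cells (668-fold, SE 0.58, edgeR adjusted p = 1.4e-11) and by 12.28 in AhR-KO cells (4979-fold, SE 0.65, adjusted p = 3.8e-13). The rise was larger in AhR-KO cells by 2.90 (SE 0.60, interaction adjusted p = 0.0051), and after LPS the level was higher than in WT by 2.49 (SE 0.42, adjusted p = 0.00021). Without stimulation the genotypes differed by -0.41 (95% interval -1.26 to 0.45, adjusted p = 0.95).

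The interaction passed for 1 of the 10 members, Ptgs2, where it passed for 4.30 percent of all genes tested (1.95 percent with a more positive and 2.34 percent with a more negative LPS effect in AhR-KO cells). Of the 8 genes that check the LPS response, 5 also passed with a more positive LPS effect in AhR-KO cells (Acod1, Tnf, Cxcl10, Il6 and Il12b, with values from 1.26 for Tnf to 4.94 for Il12b), and none with a more negative one. With limma-voom in place of edgeR, the Ptgs2 interaction was 2.74 with an adjusted p of 0.093. Within the runs of 8, the LPS difference of mean log2(CPM + 0.5) in WT cells was 8.72, 8.70 and 8.60, and in AhR-KO cells it was 10.30, 12.05 and 11.18. The difference was larger in AhR-KO cells in all 3 runs, by 1.58, 3.35 and 2.58. Ptges in AhR-KO LPS was also lowest in replicates 23 and 24 (85.9 and 89.8 CPM) and highest in replicates 31 and 32 (224 and 287 CPM). Whether the runs differ in handling was not tested.

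**Figure D2:**
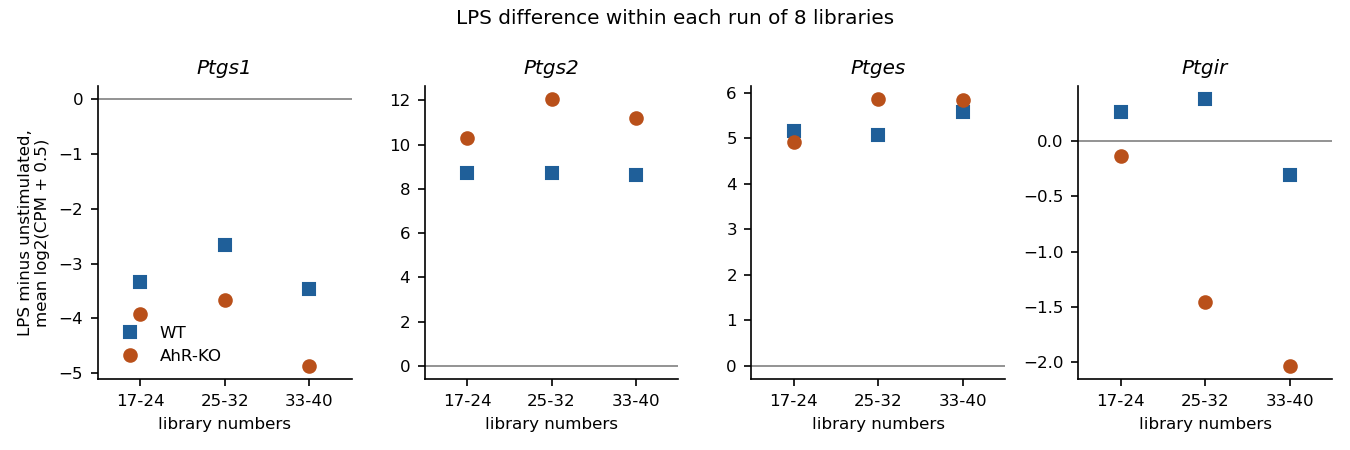
Each panel gives, for Ptgs1, Ptgs2, Ptges or Ptgir, the difference in mean log2(CPM + 0.5) between 2 LPS and 2 unstimulated libraries in each run of 8 library numbers, for WT (blue squares) and AhR-KO (orange circles). For Ptgs2 the WT differences lie between 8.60 and 8.72 and the AhR-KO differences at 10.30, 12.05 and 11.18; the vertical scale differs between panels.

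Because both cyclooxygenase transcripts have a similar exon length, their levels were set against each other as CPM per kb of merged exons. Ptgs1 made up 99.7% ± 0.165 (SD, n = 6) of the summed Ptgs1 and Ptgs2 level in WT unstimulated libraries and 98.6% ± 0.679 in AhR-KO unstimulated libraries. After LPS it made up 5.51% ± 2.03 in WT and 0.101% ± 0.0967 in AhR-KO. The unstimulated and LPS groups did not overlap in this share in either genotype, and the AhR-KO LPS libraries (0.0305% to 0.261%) lay below the WT LPS libraries (2.25% to 8.30%). The summed level was 60.3 ± 15.7 CPM per kb in WT unstimulated and 9.64 ± 2.30 in AhR-KO unstimulated libraries. After LPS the sum was 130 ± 44.8 CPM per kb in WT and 689 ± 487 in AhR-KO, so that the order of the genotypes in total cyclooxygenase transcript turned with LPS. These shares and sums are descriptions of transcript level, with no test and no measure of enzyme or product.

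**Figure D3:**
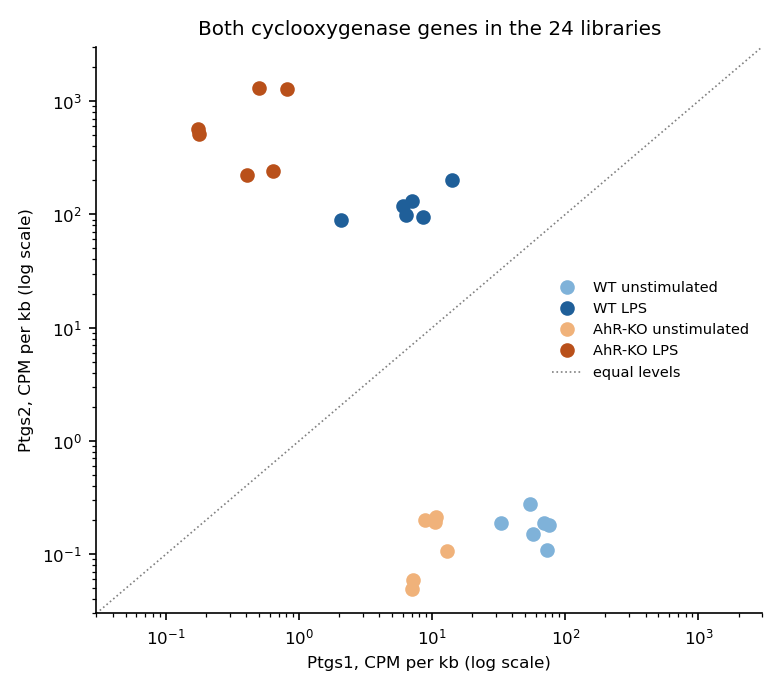
Each point is 1 of 24 libraries, with the Ptgs1 level on the horizontal and the Ptgs2 level on the vertical axis, both in CPM per kb on log scales; the dotted line marks equal levels. All 12 unstimulated libraries lie below the line and all 12 LPS libraries above it, with AhR-KO LPS libraries farthest to the upper left.

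Ptges (ENSMUSG00000050737, chromosome 2, 30889471 to 30929863, minus strand) encodes microsomal prostaglandin E synthase, the inducible enzyme that acts downstream of COX-2. It ranged from 2.61 to 5.12 CPM in WT unstimulated (median 3.44) and from 120 to 233 CPM in WT LPS libraries (median 134). In AhR-KO cells it ranged from 2.22 to 4.17 CPM without stimulation (median 2.84) and from 85.9 to 287 CPM after LPS (median 190). The LPS libraries lay far above the unstimulated ones in both genotypes, and the genotypes overlapped under each treatment. Ptges rose by 5.48 in WT (44.6-fold, SE 0.32, edgeR adjusted p = 5.6e-12) and by 5.86 in AhR-KO cells (58.1-fold, SE 0.33, adjusted p = 1.0e-12). The LPS effects differed by 0.38 with a 95% interval from -0.36 to 1.12 (adjusted p = 0.88), and the genotypes after LPS by 0.16 with an interval from -0.36 to 0.68 (adjusted p = 0.86). The interaction value was thus 2.90 for Ptgs2 and 0.38 for Ptges, and the difference between these genes was not itself tested.

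The stretches of 250 bases before the RefSeq start of Ptgs1, Ptgs2 and Ptges are shown because these are both cyclooxygenases and the synthase that rose with LPS in both genotypes. They are from GRCm38.p6 (mm10): Ptgs1 at chr2:36230176-36230425 and Ptgs2 at chr1:150099781-150100030 on the plus strand, and Ptges at chr2:30903298-30903547 on the minus strand. The Ptgs2 window also holds 183 bases of exons of the antisense RNA gene Ptgs2os, and the Ptges window precedes a start that lies inside the annotated gene. Capitals mark matches to GCGTG, the core that AhR binds with its partner ARNT, and to TTGCGCAA, a C/EBP box.
Ptgs1: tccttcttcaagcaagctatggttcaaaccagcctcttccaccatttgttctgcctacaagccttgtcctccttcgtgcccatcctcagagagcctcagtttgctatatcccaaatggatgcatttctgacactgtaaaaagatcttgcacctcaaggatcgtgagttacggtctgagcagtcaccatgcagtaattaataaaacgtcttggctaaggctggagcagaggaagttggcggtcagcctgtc
Ptgs2: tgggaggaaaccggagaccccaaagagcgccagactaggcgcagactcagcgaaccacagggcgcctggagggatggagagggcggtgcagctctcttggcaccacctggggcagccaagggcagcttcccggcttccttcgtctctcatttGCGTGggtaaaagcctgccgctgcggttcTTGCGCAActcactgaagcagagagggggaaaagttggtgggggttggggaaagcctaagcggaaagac
Ptges: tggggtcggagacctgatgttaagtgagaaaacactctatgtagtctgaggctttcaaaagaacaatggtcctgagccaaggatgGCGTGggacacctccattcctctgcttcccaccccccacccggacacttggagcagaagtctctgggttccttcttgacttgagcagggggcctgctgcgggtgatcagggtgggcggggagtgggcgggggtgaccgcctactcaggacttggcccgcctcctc

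Both strands were searched for GCGTG, the cyclic AMP response core TGACGT, TTGCGCAA, the NF-kB site and TATAAA. The Ptgs2 window held GCGTG 98 bases and TTGCGCAA 69 bases before the start, the Ptges window held GCGTG 165 bases before it, and the Ptgs1 window held no match. The lack of a match for Ptgs1 covers this short window only. The study reported AhR/Arnt motifs in a chromatin region that it assigned to Ptgs1 and that was less accessible in AhR-KO cells. Among the other members, Ptges2 held GCGTG 96 bases before its start, Ptger3 held it on the opposite strand 222 bases before, and Tbxas1 held TATAAA 11 bases before, overlapping a match on the opposite strand at 13 bases. The windows of Hpgds, Ptger2, Ptger4 and Ptgir held none of these letters. However, 178 bases of the Hpgds window are exons of Hpgds itself. The Tbxas1 window, like that of Ptges, lies inside the annotated gene. Of all 32817 RefSeq windows of this length, 28.1% held GCGTG, 6.46% TGACGT, 0.165% TTGCGCAA, 7.25% the NF-kB site and 12.4% TATAAA. A match is a run of letters and was not tested as a binding site.

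Hpgds (ENSMUSG00000029919, chromosome 6, 65117293 to 65144908, minus strand) encodes the hematopoietic prostaglandin D synthase and showed the widest gap between the genotypes in unstimulated cells among the 4 synthase members. It ranged from 17.7 to 48.0 CPM in WT unstimulated (median 33.02) and from 1.73 to 9.40 CPM in WT LPS libraries (median 3.42). In AhR-KO cells it ranged from 0.598 to 1.54 CPM without stimulation (median 0.764) and from 0.0808 to 0.852 CPM after LPS (median 0.341). WT LPS libraries lay below all WT unstimulated libraries, and all AhR-KO libraries lay below all WT libraries of either treatment. Hpgds fell with LPS by 2.81 in WT cells (SE 0.47, edgeR adjusted p = 3.9e-05). In AhR-KO cells its log2 fold change was -1.14 (SE 0.47, adjusted p = 0.054), with overlapping libraries. That value passed with total library size as the scale (log2 fold change -1.64, adjusted p = 0.0043), with DESeq2 (adjusted p = 0.037), with the gene length slope as a covariate (adjusted p = 0.050), with genes of a mean of at least 1 CPM alone (adjusted p = 0.048), and without replicate 22, 27, 29 or 39, each left out in turn (adjusted p = 0.049, 0.049, 0.042 and 0.016). The interaction was 1.67 (SE 0.65, adjusted p = 0.20), so a different LPS effect between the genotypes was not shown. Against WT, Hpgds was lower in AhR-KO cells by a log2 fold change of -5.20 without stimulation (SE 0.53, adjusted p = 5.9e-07) and of -3.53 after LPS (SE 0.50, adjusted p = 2.4e-05).

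Per kb, Hpgds made up 83.5% ± 6.16 (SD, n = 6) of the summed Hpgds and Ptges level in WT unstimulated libraries and 15.6% ± 7.01 in AhR-KO unstimulated libraries. After LPS the share was 1.62% ± 0.667 in WT and 0.136% ± 0.0770 in AhR-KO libraries. No group overlapped with another in this share, so unstimulated WT cells were the only group in which the transcript of the prostaglandin D synthase exceeded that of the inducible prostaglandin E synthase.

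Tbxas1 (ENSMUSG00000029925, chromosome 6, 38875404 to 39084585, plus strand) encodes thromboxane A synthase. It ranged from 141 to 248 CPM in WT unstimulated (median 190) and from 67.7 to 140 CPM in WT LPS libraries (median 85.2). In AhR-KO cells the range was 193 to 360 CPM without stimulation (median 240) and 93.7 to 177 CPM after LPS (median 129). Unstimulated and LPS libraries did not overlap in either genotype, and the genotypes overlapped under both treatments. Tbxas1 fell by 1.02 in WT (SE 0.21, edgeR adjusted p = 0.00035) and by 1.03 in AhR-KO cells (SE 0.21, adjusted p = 0.00023), which is close to the minimum fold of the call. With each library left out in turn, the log2 fold change ranged from -1.16 to -0.90 in WT and from -1.14 to -0.91 in AhR-KO cells, and the adjusted p was at most 0.0013. The size fell under the minimum without replicate 17, 21, 22, 23, 24, 29, 30, 31, 32, 33 (the smallest, -0.90), 34, 39 or 40 in WT, and without replicate 19 (the smallest, -0.91), 31, 32 or 35 in AhR-KO cells. It also did so with DESeq2 and with DESeq2 size factors in edgeR, at -0.999 in WT and -0.997 in AhR-KO cells under either, and in WT cells with the gene length slope as a covariate (-0.94, adjusted p = 3.2e-10). The LPS effects differed by -0.02 with a 95% interval from -0.58 to 0.55.

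Ptges2 (ENSMUSG00000026820, chromosome 2, 32395896 to 32405772, plus strand) encodes a membrane-associated prostaglandin E synthase that is expressed in most cells. Its group medians lay between 24.6 and 45.9 CPM, and all 4 groups overlapped. The log2 fold change with LPS was 0.35 in WT (SE 0.24, edgeR adjusted p = 0.27) and 0.53 in AhR-KO cells (SE 0.24, adjusted p = 0.080), and no comparison passed.

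**Figure D4:**
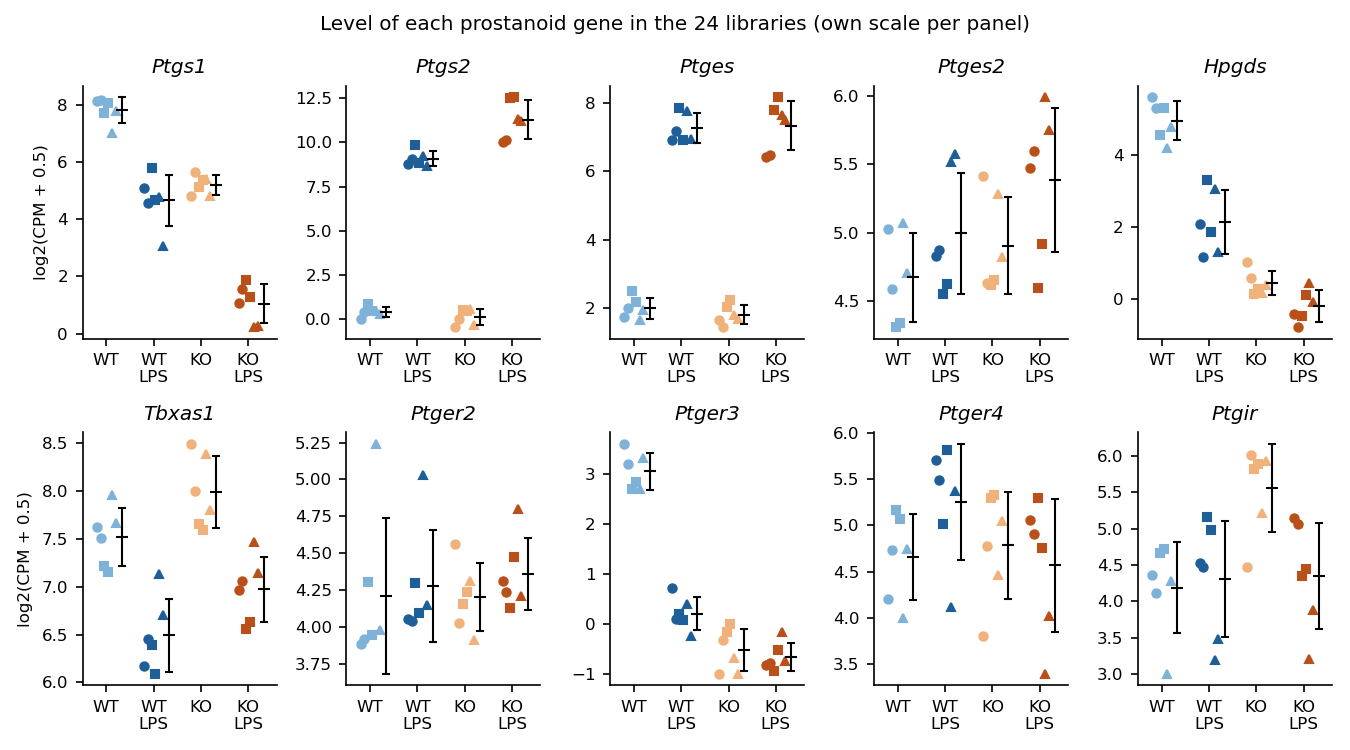
Each panel gives log2(CPM + 0.5) of 1 gene in the 24 libraries by group, with circles, squares and triangles for replicates 17 to 24, 25 to 32 and 33 to 40, and a bar for the mean and SD of each group (n = 6); the vertical scale differs between panels. Ptgs1 and Hpgds are highest in WT unstimulated, Ptgs2 and Ptges are high after LPS only, and the groups of Ptges2, Ptger2 and Ptger4 overlap.

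Among the receptors, Ptger3 fell with LPS in WT cells and was lower in AhR-KO cells, Ptgir was higher in unstimulated AhR-KO cells and fell there with LPS, and Ptger2 and Ptger4 passed no test. Ptger3 (ENSMUSG00000040016, chromosome 3, 157566892 to 157645888, plus strand) encodes EP3, a prostaglandin E2 receptor that couples to inhibition of adenylate cyclase. It ranged from 6.02 to 11.7 CPM in WT unstimulated (median 7.71) and from 0.343 to 1.14 CPM in WT LPS libraries (median 0.610). In AhR-KO cells it ranged from 0 to 0.496 CPM without stimulation (median 0.214, from 0 to 35 counts) and from 0.0197 to 0.387 CPM after LPS (median 0.0882, from 1 to 15 counts). WT unstimulated libraries stood above all other libraries, and replicates 19 and 36 of AhR-KO unstimulated had no count. Ptger3 fell with LPS by 3.58 in WT cells (SE 0.68, edgeR adjusted p = 0.00018), and in AhR-KO cells the log2 fold change was -0.69 (SE 0.70, adjusted p = 0.46). The interaction was 2.89 (SE 0.96, adjusted p = 0.10); it passed with DESeq2 (adjusted p = 0.016), limma-voom (3.68, adjusted p = 0.044) and the gene length slope as a covariate (adjusted p = 0.021). Against WT, Ptger3 was lower in unstimulated AhR-KO cells by a log2 fold change of -5.18 (SE 0.74, adjusted p = 4.6e-05), or of -6.28 with limma-voom (adjusted p = 9e-07). After LPS it was lower by -2.29 (SE 0.70, adjusted p = 0.031), and this call was lost without replicate 21, 23, 24, 31 or 40, each left out in turn (adjusted p = 0.073, 0.073, 0.071, 0.065 and 0.066).

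Ptgir (ENSMUSG00000043017, chromosome 7, 16906490 to 16910905, plus strand) encodes IP, the prostacyclin receptor. It ranged from 7.53 to 25.8 CPM in WT unstimulated (median 19.4) and from 8.64 to 35.2 CPM in WT LPS libraries (median 22.1). In AhR-KO cells it ranged from 21.6 to 64.0 CPM without stimulation (median 57.4) and from 8.75 to 34.98 CPM after LPS (median 20.6). AhR-KO unstimulated libraries were the highest group apart from replicate 19, which lay among the other groups. Replicates 33, 37, 19 and 39 had the lowest gene length slope of their groups (0.114, 0.199, 0.0952 and 0.181), and in each group the same library had the lowest Ptgir and Ptger4 and the highest Tbxas1 and Ptger2; Ptges2 was highest in the same library in 3 of the 4 groups. After the group means were removed, Pearson r with this slope was -0.93 for Tbxas1, -0.92 for Ptges2, 0.87 for Ptgir, 0.80 for Ptger4, 0.62 for Ptgs1 and -0.60 for Ptger2, and between -0.027 and 0.37 for the other members, as a description over 24 libraries that share 4 groups and the same runs. Ptgir fell with LPS by 1.17 in AhR-KO cells (SE 0.38, edgeR adjusted p = 0.013), while the log2 fold change in WT cells was 0.19 (SE 0.37, adjusted p = 0.73). The interaction was -1.36 (SE 0.53, adjusted p = 0.19) and passed with the run of 8 as a factor (adjusted p = 0.049) and with the gene length slope as a covariate (adjusted p = 0.0092). Within the runs the AhR-KO difference was -0.13, -1.46 and -2.03, so the first run showed little of it. Without stimulation Ptgir was higher in AhR-KO than in WT cells by 1.39 (SE 0.38, adjusted p = 0.025). That call was lost with total library size as the scale (adjusted p = 0.082), with the Y-linked level as a covariate (adjusted p = 0.054), and without replicate 18, 20, 28, 33, 34 or 36, each left out in turn (adjusted p = 0.059, 0.061, 0.053, 0.053, 0.052 and 0.055). After LPS the genotypes differed by 0.02 with a 95% interval from -0.70 to 0.75.

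Ptger2 (ENSMUSG00000037759, chromosome 14, 44988195 to 45003820, plus strand) and Ptger4 (ENSMUSG00000039942, chromosome 15, 5206661 to 5244187, minus strand) encode EP2 and EP4, the prostaglandin E2 receptors that raise cyclic AMP. Ptger2 had group medians between 15.1 and 18.8 CPM, and its log2 fold change with LPS was 0.02 in WT (95% interval -0.43 to 0.47) and 0.16 in AhR-KO cells (95% interval -0.28 to 0.61). Its highest values were 37.3 CPM in replicate 33 and 32.2 CPM in replicate 37, the libraries with the highest summed neutrophil markers of their groups (12638 and 8396 CPM). In AhR-KO LPS replicate 39 was likewise highest in Ptger2 (27.4 CPM) and in these markers (1016 CPM), whereas in AhR-KO unstimulated Ptger2 was highest in replicate 19 (23.2 CPM) and the markers in replicate 35 (791 CPM); the part of these markers in the result was not tested. Ptger4 ranged from 15.5 to 35.5 CPM in WT unstimulated and from 16.8 to 56.0 CPM in WT LPS libraries. In AhR-KO cells it ranged from 13.5 to 39.7 CPM without stimulation and from 10.0 to 38.7 CPM after LPS. Its log2 fold change with LPS was 0.65 in WT (SE 0.32, edgeR adjusted p = 0.12) and -0.17 in AhR-KO cells (SE 0.32, adjusted p = 0.71), and the interaction was -0.82 (SE 0.46, adjusted p = 0.50).

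Comparing the genotypes, 1 member was higher and 3 were lower in unstimulated AhR-KO cells, where 4.48 percent of all genes tested differed (0.916 percent higher, 3.57 percent lower). After LPS 1 member was higher and 3 were lower, where 8.36 percent of all genes differed (2.17 percent higher, 6.19 percent lower). Ptgs1, Hpgds and Ptger3 were lower under both treatments, Ptgir was higher without stimulation and Ptgs2 was higher after LPS. Libraries of the genotypes did not overlap for 3 members without stimulation (5.15 percent of all genes) and for 3 members after LPS (7.11 percent).

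Markers of other cell types moved with genotype as well, and in bulk RNA fewer cells of a type and less RNA per cell cannot be told apart. Of the 8 dendritic cell markers, 7 were tested; 5 were lower and 1 was higher in unstimulated AhR-KO cells, and 5 were lower after LPS. Their summed level was 57.0 to 221 CPM in WT and 10.2 to 17.5 CPM in AhR-KO cells without stimulation, and 611 to 2586 CPM in WT and 102 to 893 CPM in AhR-KO cells after LPS. Cd209a had no count in WT LPS, and every dendritic cell marker had counts in the other groups. Of the 10 mast cell and basophil markers, 8 were tested, with 4 lower in AhR-KO cells without stimulation and 5 lower after LPS. Their sum was 8.49 to 25.8 CPM in WT and 4.08 to 6.59 CPM in AhR-KO cells without stimulation, and 20.2 to 57.0 CPM in WT and 9.42 to 15.4 CPM in AhR-KO cells after LPS; Mcpt4 had no count in the unstimulated groups. Of the 8 neutrophil markers, 7 were tested, with 6 lower in AhR-KO cells without stimulation and 4 lower after LPS. They summed to 1578 to 12638 CPM in WT and 236 to 791 CPM in AhR-KO cells without stimulation, and to 708 to 8396 CPM in WT and 135 to 1016 CPM in AhR-KO cells after LPS. The part of any of these cells in the levels of Ptgs1, Hpgds and Ptger3 was not tested. Platelets also express Ptgs1 and Tbxas1. Of the 6 platelet and megakaryocyte markers, 4 were tested; 2 (Pf4 and Ppbp) were higher and 1 (Itga2b) was lower in unstimulated AhR-KO cells, and 1 (Itga2b) was lower after LPS. With LPS 1 rose in WT cells and 1 fell in AhR-KO cells, and Pf4 and Ppbp passed the interaction test with a more negative LPS effect in AhR-KO cells. Pf4 made up most of their sum, at a mean of 47.7 CPM in WT unstimulated, 150 CPM in WT LPS, 125 CPM in AhR-KO unstimulated and 105 CPM in AhR-KO LPS libraries. Itga2b was at 2.09 CPM in WT and 0.207 CPM in AhR-KO cells without stimulation, and Itgb3, which did not pass between the genotypes there, at 1.59 and 0.841 CPM. The sum was 27.6 to 81.2 CPM in WT and 93.1 to 184 CPM in AhR-KO cells without stimulation, and 117 to 262 CPM in WT and 76.6 to 149 CPM in AhR-KO cells after LPS; Gp1bb had no count in any group and Gp9 had counts in WT unstimulated only. Of the 6 fibroblast markers, all tested, 1 (Dcn) was higher in AhR-KO than in WT cells after LPS and passed the interaction test. Their sum was 0.792 to 9.34 CPM in WT LPS and 9.91 to 28.2 CPM in AhR-KO LPS libraries, the groups in which Ptgs2 also differed, and at most 6.00 CPM in the unstimulated libraries. Dcn made up most of the sum in AhR-KO LPS libraries, at a mean of 11.9 CPM against 0.822 CPM in WT LPS. The 5 other fibroblast markers did not pass between the genotypes after LPS. The part of platelet or fibroblast markers in these results was not tested.

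The order of the members per kb changed with LPS and with genotype. In WT unstimulated libraries Ptgs1 led at 60.2 ± 15.7 CPM per kb (SD, n = 6), followed by Tbxas1 at 20.5 ± 4.32, both without overlap with the next gene. Ptgir, Ptges2, Hpgds, Ptger4 and Ptger2 followed between 5.68 and 3.71 CPM per kb, and each of them overlapped with its neighbour. Ptger3, Ptges and Ptgs2 were lowest at 1.43, 0.908 and 0.182 CPM per kb. In WT LPS libraries Ptgs2 led at 122 ± 41.4 CPM per kb and Ptges came next at 40.6 ± 13.0, with no overlap, and Hpgds and Ptger3 were lowest at 0.720 and 0.119. In AhR-KO unstimulated libraries Tbxas1 led at 28.8 ± 7.77 CPM per kb, then Ptgir at 14.9 ± 5.03 and Ptgs1 at 9.50 ± 2.26, which overlapped. In AhR-KO LPS libraries Ptgs2 at 688 ± 487 CPM per kb and Ptges at 45.2 ± 19.9 again led without overlap, and Ptgs1, Hpgds and Ptger3 were lowest at 0.449, 0.0625 and 0.0247. The 4 receptors together summed to 14.7 ± 1.97 and 16.4 ± 3.71 CPM per kb in WT cells without and with LPS, and to 22.7 ± 5.86 and 14.4 ± 3.95 CPM per kb in AhR-KO cells.

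Of 9 other prostanoid synthase genes, 8 were tested; with LPS none rose and 2 fell in WT cells (24.9 percent of all genes changed), and none passed in AhR-KO cells (30.8 percent). Without stimulation 2 of them were lower in AhR-KO cells, and after LPS 1 was lower. Cbr3, a carbonyl reductase, fell by 1.10 with LPS in WT cells (27.3 ± 9.96 to 12.8 ± 6.70 CPM, edgeR adjusted p = 0.023), a call that was lost without replicate 17, 21, 22, 29, 30 or 33, each left out in turn (adjusted p = 0.053, 0.052, 0.054, 0.052, 0.052 and 0.063), and that fell under the minimum fold with the gene length slope as a covariate (-0.99, adjusted p = 3e-06). Akr1c18, a 20-alpha-hydroxysteroid dehydrogenase that can also form prostaglandin F, belongs to a family of similar genes between which reads can be lost. It was at 1.11 ± 0.488 CPM in WT and 0.122 ± 0.124 CPM in AhR-KO unstimulated libraries (log2 fold change -3.17, adjusted p = 0.029) and at 1.29 ± 0.828 and 0.185 ± 0.202 CPM after LPS (log2 fold change -2.79, adjusted p = 0.034). Its calls were lost without replicate 17, 18, 19, 26, 28 or 36 before stimulation, where the adjusted p was between 0.051 and 0.065, and without replicate 21, 23, 24, 30, 31, 32 or 37 after LPS, where it was between 0.060 and 0.071; the call after LPS was also lost with the 12 libraries compared alone (-2.76, adjusted p = 0.063). Before stimulation the value moved to -4.28 with limma-voom (adjusted p = 0.0048) and to -3.80 without replicate 20, and after LPS to -3.56 with limma-voom (adjusted p = 0.011) and to -3.42 without replicate 40. Ptgis, the prostacyclin synthase, fell by 4.02 with LPS in WT cells (adjusted p = 0.0011), with an interaction of 5.36 (adjusted p = 0.011). The interaction was 4.69 with limma-voom (adjusted p = 0.055), 4.23 with the Y-linked level as a covariate (adjusted p = 0.023), 3.78 without both libraries that lack Y-linked counts (adjusted p = 0.043) and 3.73 without replicate 34 (adjusted p = 0.033). Its WT unstimulated libraries ranged from 0.0732 to 7.65 CPM with a median of 0.777, and the top value came from replicate 34, which is also a library without Y-linked counts. Without replicate 34 the genotype difference of Ptgis in unstimulated cells went from -2.97 (adjusted p = 0.037) to -1.34 (adjusted p = 0.45), and this call was also lost without replicate 19, 20, 27, 28 or 36 (adjusted p between 0.061 and 0.091), with limma-voom (-1.80, adjusted p = 0.33), with the Y-linked level as a covariate (-1.60, adjusted p = 0.34) and with the 12 libraries compared alone (adjusted p = 0.10), and without both libraries that lack Y-linked counts (-1.34, adjusted p = 0.46). The LPS log2 fold change of Ptgis in WT cells was -2.39 without replicate 34 (adjusted p = 0.012), -2.43 without both libraries that lack Y-linked counts (adjusted p = 0.019), -2.95 with the Y-linked level as a covariate (adjusted p = 0.0046) and -3.31 with limma-voom (adjusted p = 0.013).

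Of 5 other prostanoid receptor genes, 2 were tested, and 1 rose with LPS in both genotypes. Ptgfr, the prostaglandin F receptor, went from 0.294 ± 0.227 to 2.28 ± 1.31 CPM in WT cells (log2 fold change 2.95, edgeR adjusted p = 6.8e-05) and from 0.337 ± 0.203 to 1.60 ± 0.349 CPM in AhR-KO cells (log2 fold change 2.23, adjusted p = 0.00081). Of 6 genes for prostanoid transport and breakdown, 5 were tested, and 1 fell with LPS in both genotypes. Hpgd, the dehydrogenase that inactivates prostaglandins, fell from 0.333 ± 0.217 to 0.00816 ± 0.0200 CPM in WT cells (log2 fold change -4.91, adjusted p = 0.00070) and from 0.344 ± 0.277 to 0.0351 ± 0.0768 CPM in AhR-KO cells (log2 fold change -3.16, adjusted p = 0.0069). With limma-voom the AhR-KO value was -3.82 (adjusted p = 0.00011). These LPS groups held 3 and 11 counts in all, so ratios of summed, scaled counts were taken with exact 95% intervals that cover counting error only. The ratio of unstimulated to LPS was 33.1 in WT cells (interval 11.1 to 163) and 8.34 in AhR-KO cells (interval 4.5 to 17.1). Replicate 29 held all 3 counts of the WT LPS group; without it that group had no count, and at a floor of 3 counts over the group Hpgd was at least 26.9-fold higher without LPS. Replicate 40 held 10 of the 11 counts of the AhR-KO LPS group, and without it the ratio was 75.5 (interval 13.3 to 3007). No gene of these 2 lists met both criteria between the genotypes. Zadh2, which also reduces 15-keto-prostaglandins, was higher in AhR-KO cells by 0.50 without stimulation (adjusted p = 0.0043, no overlap) and by 0.50 after LPS (adjusted p = 0.0027), under the minimum fold; it was named after its values were seen.

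Across the 24 libraries, the genes whose log2(CPM + 0.5) followed Ptgs1 most closely were Fam234b, Alox5 and Ltc4s, with Pearson r of 0.97, 0.96 and 0.96. After the group means were removed, r was 0.38, 0.77 and 0.70. For Ptgs2 they were Socs3, Junb and Sema3c, each with r of 0.99, and 0.65, 0.66 and 0.75 after removal of the group means. For Hpgds they were Cd207, Pde1c and Cd34, with r of 0.97, 0.97 and 0.96, and 0.63, 0.67 and 0.46 after removal. These values are descriptions over 24 libraries that share 4 groups and the same runs.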

How the data were processed

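RNA was sequenced from 24 libraries in 4 groups of 6. The authors aligned reads to mm10 with GSNAP and deposited raw counts of uniquely aligned fragments per Ensembl 98 gene (featureCounts 2.0.1, per the file headers paired, strand-specific); 92 spike-in rows, with 1 count in all, were left out. The counts were tested in edgeR 4.0.16 (R 4.3.3; TMM scaling, filterByExpr, robust quasi-likelihood fit over all libraries, Benjamini-Hochberg adjustment over 16593 genes; biological coefficient of variation 49.1%). The fitting steps were tested on simulated data. Levels are TMM-scaled CPM; per-kb levels use the deposited exon length. At these depths counts limit precision mainly for Ptger3, Hpgds and unstimulated Ptgs2. Alternatives were DESeq2 1.42.0 and its size factors, limma-voom 3.58.1, total library size, other filters and pseudocounts, the runs of 8, the length slope, Y-linked level and each library left out. All 10 members were named, and for Ptgs1, Ptgs2 and Hpgds the 3 genes with the highest r. Genes of the other pathway lists were to be named only where called, and Zadh2 was named outside this rule. Marker lists were to be given by counts, sums and markers without counts. The single markers Pf4, Ppbp, Itga2b, Itgb3 and Dcn were named outside this rule. The members and lists were chosen with earlier results of these data known. Replicates are separate samples per the labels, and p-values measure the spread between them. The study gives 6 animals per group from 1 experiment. The tests treat all libraries as independent, although unstimulated and LPS cultures may share animals.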

Additional observations from a re-analysis of the deposited data

Results flagged for a closer look

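Within 60 groups of 6 libraries (10 members and 5 other pathway genes), 6 held a library whose gap to its nearest neighbour exceeded Dixon's 95% critical value of 0.625 of the range. That value marks about 1 in 20 groups of normally distributed values. It was applied here to CPM, and the Hpgd groups rest on few counts, so the rate expected by chance is not known for these groups. Ptger2 was 37.3 CPM in WT unstimulated replicate 33, where the next value was 19.2, and 32.2 CPM in WT LPS replicate 37, where the next was 19.2. Ptgis was 7.65 CPM in WT unstimulated replicate 34, where the next was 0.836. Hpgd was 0.0490 CPM in WT LPS replicate 29, where all others were at 0, 0.906 CPM in AhR-KO unstimulated replicate 19, where the next was 0.265, and 0.191 CPM in AhR-KO LPS replicate 40, where the next was 0.0197.

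The LPS effect differed between AhR-KO and WT cells by a log2 value of 2.90 for Ptgs2 (interaction adjusted p = 0.0051, edgeR; 2.74 with limma-voom, adjusted p = 0.093), higher in all 3 runs of 8, and by 5.36 for Ptgis (adjusted p = 0.011; 4.69 with limma-voom, adjusted p = 0.055; 3.73 without replicate 34, adjusted p = 0.033).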

How the results depend on the processing

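Leaving out each library in turn kept the number of members called at 5 to 6 for LPS in WT, 4 to 6 for LPS in AhR-KO, 1 for the interaction, and 3 to 4 for the genotype without and after LPS. Interaction calls moved most: 2 members and 1125 genes with DESeq2, 3 and 1201 with the run of 8 as a replicate block, and 4 and 2793 with the length slope, against 1 and 713. Without a minimum fold, 6305 genes in WT LPS and 2096 in the genotype comparison after LPS passed, against 4137 and 1387. Total library size moved the median of all genes to -0.31 (LPS in WT), -0.52 (LPS in AhR-KO), -0.26 (genotype after LPS) and -0.18 (interaction), and the higher calls from 2186 of 4137 to 1622 of 4785 for LPS in WT, from 2504 of 5105 to 1730 of 6128 for LPS in AhR-KO, from 360 of 1387 to 236 of 1587 for the genotype after LPS and from 324 of 713 to 252 of 802 for the interaction.

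Changes of sign concerned uncalled values only. With total library size they were Ptges2 (-0.0034), Ptger2 (-0.31) and Ptgir (-0.15) for LPS in WT, Ptger2 for LPS in AhR-KO (-0.32), the Ptger2 interaction (-0.0067), and Ptges (-0.071), Ptger2 (-0.15) and Ptgir (-0.20) for the genotype after LPS. Ptger2 for LPS in WT was -0.041 with genes of at least 1 CPM, -0.016 with the 12 libraries compared and -0.0049 without the libraries lacking Y-linked counts (chosen after seeing the data). Ptgir for LPS in WT was -0.050 with the length slope, Ptger3 for LPS in AhR-KO 0.068 and Ptger2 for the genotype without stimulation 0.0098 with limma-voom, and Ptgir for the genotype after LPS -0.00021 with the Y-linked level and -0.11 without the libraries lacking Y-linked counts. The Tbxas1 interaction was 0.0018 with DESeq2 size factors, 0.0018 with DESeq2, 0.015 with limma-voom and 0.032 with genes of at least 1 CPM. With 1 library left out, sign changes lay within -0.16 to 0.33 (Ptger2, LPS in WT), -0.0033 to 0.37 (Ptgir, LPS in WT), -0.14 to 0.14 (Tbxas1 interaction), -0.16 to 0.33 (Ptger2 interaction), -0.17 to 0.21 (Ptger2, genotype without stimulation), -0.037 to 0.30 (Ptges), -0.058 to 0.25 (Ptger2) and -0.17 to 0.22 (Ptgir, all genotype after LPS).

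A pseudocount of 2 CPM in place of 0.5 moved the log2 ratio of Ptgs1 over Ptgs2 to 6.57 (WT unstimulated) and 4.11 (AhR-KO unstimulated), and that of Hpgds over Ptges to -1.52 (AhR-KO unstimulated) and -6.81 (AhR-KO LPS); 0.1 CPM moved them to 6.04 (Ptgs1 over Ptgs2, AhR-KO unstimulated) and -9.25 (Hpgds over Ptges, AhR-KO LPS). The cause of these changes was not tested beyond the construction of each alternative. No paired analysis was possible because the groups share no replicate numbers and the labels tie no unstimulated library to an LPS library; the run of 8 is a block of 8 libraries and not a pairing. Low counts limit Ptger3 and Hpgds in AhR-KO cells.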
